A study of Mus musculus with 12 samples.

Results

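Wide H3K4me3 domains were autosomal stretches of at least 2000 bp under trimethylated histone H3 lysine 4 in mouse embryonic stem cells. They were chosen by the measured H3K4me3 peaks themselves: the peaks of the 4 H3K4me3 libraries on chromosomes 1 to 19 were merged where they shared 1 bp or more, and a merged region was kept when it spanned 2000 bp or more and held a peak of all 4 libraries. The rule gave 1191 domains among 15566 merged regions with a peak of all 4 libraries and 22831 merged regions in all. Only 5 regions of 2000 bp or more lacked a peak of some library. The 14375 regions under 2000 bp with a peak of all 4 libraries, called narrower regions here, served for comparison.

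The cells were E14TG2a, an established male mouse embryonic stem cell line, and the labels name 2 genotypes. The del-cIDR cells lack the intrinsically disordered region at the C terminus of ALKBH5, a demethylase acting on N6-methyladenosine in RNA, and the WT cells carry it. Both genotypes were grown in medium with 15% FBS, LIF at 1000 U/ml and the inhibitors PD0325901 at 1 µM and CHIR99021 at 3 µM. CUT&Tag served for H3K4me3 and H3K27ac and CUT&RUN for H3K9me3; both methods release chromatin at the sites an antibody binds, and each mark had 2 libraries per genotype, 12 in total. Whether the 2 libraries of a genotype are separate cultures or clones is not stated, so the spread behind each p-value is that of these libraries and may be technical, and a difference between genotypes cannot be told apart from a difference between clones. The libraries came from bulk cells, so a longer mark in every cell and the mark in more of the cells cannot be told apart.

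H3K4me3 marks the starts of genes that are active or poised for activity, and most of its peaks are short. At some genes the mark spreads over a longer stretch, and broad H3K4me3 is known from stem cells and differentiated tissues around genes tied to cell identity and around developmental regulators. H3K27 acetylation marks active promoters and enhancers, while H3K9 trimethylation marks heterochromatin and silenced repeats and is seldom found with the other 2 marks on the same nucleosomes. Domains are given by their GRCm39 position and were not assigned to genes here, so the embryonic stem cell label was not checked against marker genes.

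Most domains lay close to the threshold. The merged width had a lower quartile of 2121 bp, a median of 2266 bp and an upper quartile of 2541 bp, and the widest domain spanned 4487 bp. The narrower regions had a median width of 1183 bp. Of the 1191 domains, 335 spanned 2500 bp or more, 86 spanned 3000 bp or more and 4 spanned 4000 bp or more. The domains made up 7.65% of the regions with a peak of all 4 libraries and 14.0% of the bases in them, or 2.83 Mb in all.

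The threshold cut through a continuous distribution. The 3 domains just inside it spanned 2000 bp each, at chr14:25607247-25609246, chr2:129039936-129041935 and chr7:46494782-46496781. The first of them had 1936 and 1981 bp under H3K4me3 peaks in del-cIDR libraries, against 1844 and 1902 bp in WT libraries. The 3 regions just outside spanned 1998 bp each, at chr10:128657107-128659104, chr11:106888565-106890562 and chr14:76651593-76653590. The first of these had 1863 and 1998 bp in del-cIDR libraries and 1723 and 1753 bp in WT libraries.

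Merging libraries made domains longer than most single libraries showed them. A total of 581 domains (48.8%) had at least 2000 bp under peaks in each of the 4 libraries, 126 in 3 libraries, 170 in 2 and 199 in 1. The remaining 115 domains (9.66%) reached 2000 bp in no single library and did so only as a union. Domains that reached 2000 bp in both del-cIDR libraries and in no WT library numbered 71, and those that did so in both WT libraries and in no del-cIDR library numbered 30.

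Each domain was usually 1 long peak rather than a chain of short ones. The number of domains holding more than 1 peak of a library was 77 and 36 in the del-cIDR libraries and 87 and 59 in the WT libraries, which is 3.02% to 7.30% of the domains. No domain held more than 3 peaks of a library.

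Wide domains were long and flat rather than tall. The fold enrichment that the authors' peak caller gave the strongest peak of a domain had medians of 7.03 and 6.92 in del-cIDR libraries and 7.09 and 7.04 in the WT libraries. In narrower regions the medians were 9.97 and 9.86 in the del-cIDR libraries and 9.94 in both WT libraries. The strongest peaks of the 15566 regions with a peak of all 4 libraries were ranked within each library. Among them, that of a domain stood at a median percentile of 22.1 to 23.4 by fold enrichment and of 71.8 to 73.0 by −log10 q. Only 1 domain reached the highest 10% of these regions by fold, in WT replicate 1. These values come from the peaks that chose the domains and are a description only.

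Fold enrichment was highest at intermediate width. The median percentile by fold was 63.3 to 63.7 over the 4 libraries in regions of 1000 to 1500 bp, 26.5 to 27.4 at 2000 to 2500 bp and 8.26 to 8.94 at 3000 bp or more.

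The position of the H3K4me3 summit within a domain was stable across libraries. The summit of the strongest peak fell in the middle 20% of the domain's width in 28.3% to 29.7% of domains, depending on the library, and in the outer 20% at either end in 11.5% to 12.8%. Summits of the same domain lay a median of 28 bp apart between the del-cIDR libraries, 37 bp apart between the WT libraries and 34 to 46 bp apart between libraries of different genotype. Between any 2 libraries, 78.3% to 81.4% of the summit pairs lay within 200 bp. The distances between genotypes were about as short as those within a genotype.

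The domains were spread over all 19 autosomes. They made up between 5.97% of the regions on chromosome 13 and 10.8% on chromosome 17, where 84 of 777 regions were wide. Chromosome 7 followed with 107 of 1136 regions and chromosome 11 with 115 of 1251. The median gap from a domain to the next domain was 296821 bp, and 184 domains (15.4%) had another within 50000 bp, against 12.9% of narrower regions with a wide domain that close.

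The 10 widest domains show how differently a wide domain could behave in the 2 genotypes. The widest, chr2:115890784-115895270, had 3738 and 3595 bp under H3K4me3 peaks in del-cIDR libraries, against 910 and 1617 bp in WT libraries. Its del-cIDR and WT libraries did not overlap, and the mark was broken into 2 or 3 peaks in every library except WT replicate 1. Its fold enrichment was low in each library, between 3.90 and 4.26.

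The next 3 domains were long in every library. Domain chr11:3238837-3243190 had 4089 and 4035 bp in del-cIDR libraries and 4194 and 4147 bp in WT libraries. Domain chr17:34336520-34340812 had 4027 and 4076 bp in del-cIDR libraries, while both WT libraries covered its whole width of 4293 bp. Domain chr10:42150038-42154143 had 3872 and 4106 bp in del-cIDR libraries and 4019 and 3695 bp in WT libraries, and here the genotypes overlapped. Acetylation also told them apart, since H3K27ac peaks covered 2334 and 2423 bp of the chr17 domain in del-cIDR libraries and 2239 and 2297 bp in WT libraries, but only 936 and 1784 bp of the chr11 domain in del-cIDR libraries and 508 and 718 bp in WT libraries.

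Among the other 6 of the 10 widest, 2 differed between the genotypes without overlap and by more than 500 bp. Domain chr9:62248021-62252004 had 3188 and 2968 bp in del-cIDR libraries, against 3600 and 3872 bp in WT libraries. Domain chr11:62441273-62445195 had 3650 and 3889 bp in del-cIDR libraries, against 3291 and 2960 bp in WT libraries. Domain chr5:119808293-119812128 was the steadiest, with 3715 and 3722 bp in del-cIDR libraries and 3701 and 3691 bp in WT libraries. The 10 widest domains thus held examples of both directions and of near equality.

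The first comparison was of domain length between the genotypes, measured as bases under H3K4me3 peaks. A domain averaged 2148 and 2210 bp in the del-cIDR libraries, against 2114 and 2143 bp in the WT libraries. Both del-cIDR libraries lay above both WT libraries, with the smaller gap at under 5 bp. The genotype mean was 2179 ± 44.2 bp for del-cIDR libraries and 2129 ± 20.8 bp for WT libraries (SD, n = 2 each), a difference of 50.4 bp or 0.034 on the log2 scale. The peaks measured here are those that chose the domains, so these lengths are a description with no test. Without del-cIDR replicate 2 the log2 difference was 0.013, and without del-cIDR replicate 1 it was 0.054. The number of domains with 2000 bp or more under peaks was 798 and 883 in del-cIDR libraries and 753 and 807 in WT libraries, so here the genotypes overlapped.

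Narrower regions did not share this direction. They averaged 1046 and 1071 bp in the del-cIDR libraries and 1063 and 1075 bp in the WT libraries, a log2 difference of -0.014 between genotype means, in which the libraries overlapped. Dividing the mean length of the domains by that of the narrower regions of the same library, a measure chosen after seeing the data, gave 2.053 and 2.064 in del-cIDR libraries and 1.989 and 1.995 in WT libraries. The means were 2.06 ± 0.0078 for del-cIDR libraries and 1.99 ± 0.0036 for WT libraries (SD, n = 2 each), a log2 difference of 0.047, likewise with no test. The 2 libraries of a genotype lay much closer together on this relative measure than in bp, and the difference stayed between 0.044 and 0.051 with any 1 library left out. It was smaller, at 0.027, in the 581 domains with at least 2000 bp under peaks in each library. In bp the log2 difference of those domains was 0.018, and the libraries of the genotypes overlapped.

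**Figure D1:**
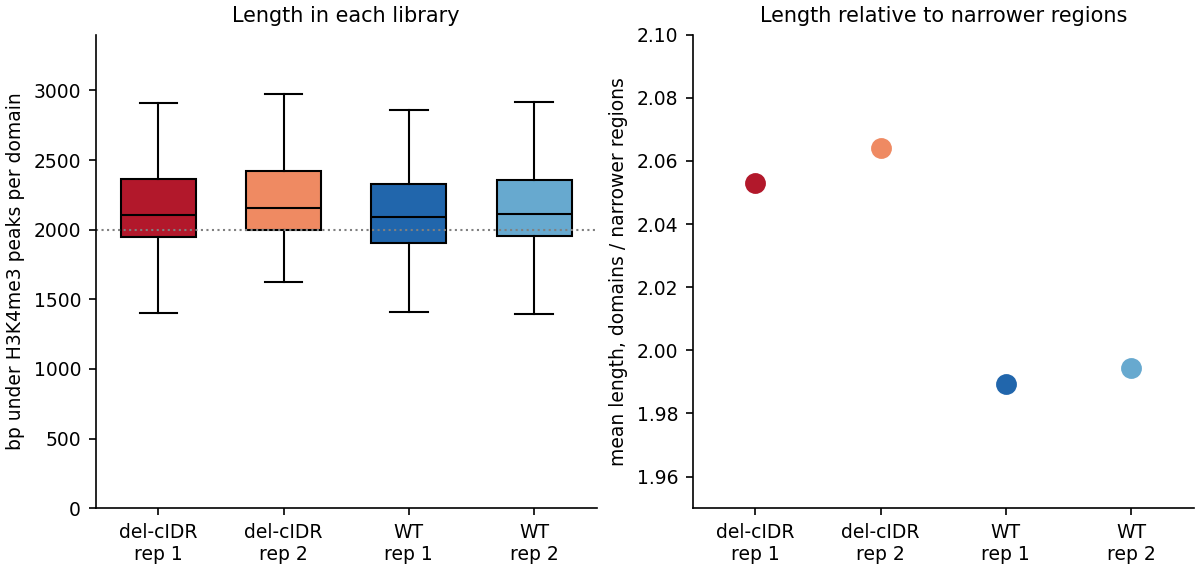
Left, bases under H3K4me3 peaks per domain (bp) in each of the 4 libraries for the 1191 domains, with the box at the quartiles, the line at the median, whiskers at the 5th and 95th percentiles and a dotted line at 2000 bp. Right, mean length of the domains divided by the mean length of narrower regions in the same library, 1 point per library on an axis that does not start at 0: the 2 del-cIDR points sit at 2.053 and 2.064 and the 2 WT points at 1.989 and 1.995.

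In the plot of length by library the boxes almost coincide, with medians of 2107 and 2156 bp in del-cIDR libraries and 2088 and 2111 bp in WT libraries. The separation by genotype appeared in the ratio to narrower regions, not in the medians, whose genotypes overlapped.

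Length was then compared by width class. The log2 ratio of mean lengths, del-cIDR over WT, was -0.025 in 4205 regions of 500 to 1000 bp, -0.015 in 7019 regions of 1000 to 1500 bp and -0.0051 in 3057 regions of 1500 to 2000 bp. Within the domains it was 0.027 in 856 of 2000 to 2500 bp, 0.048 in 249 of 2500 to 3000 bp and 0.044 in 86 of 3000 bp or more. Between single libraries of the 2 genotypes the ratio ran from 0.0019 to 0.052 in the first of these classes, from 0.0092 to 0.087 in the second and from -0.0041 to 0.093 in the third, so in the widest class the libraries of the genotypes overlapped. No class was tested on its own.

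**Figure D2:**
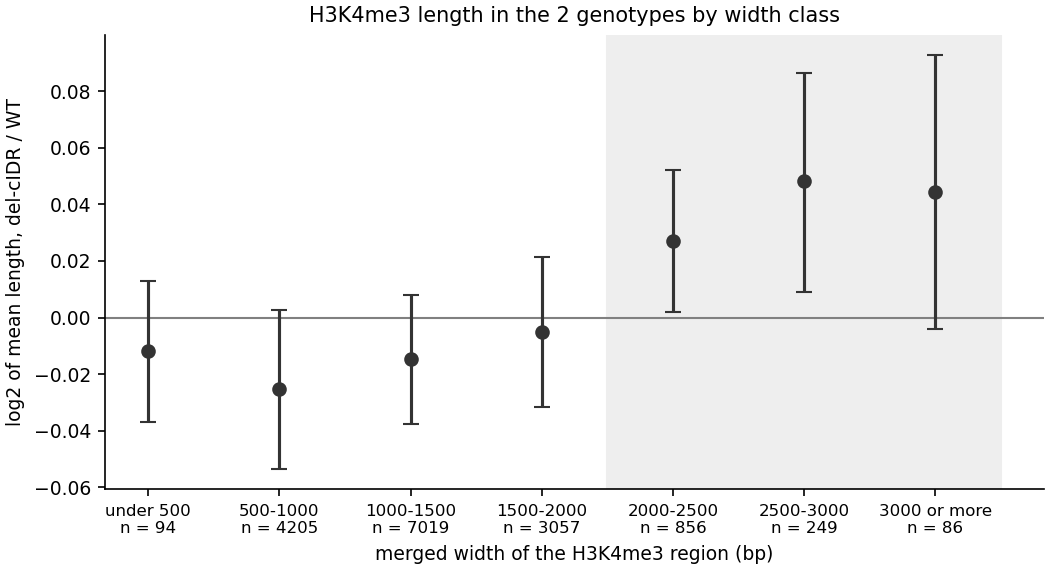
Log2 ratio of the mean length under H3K4me3 peaks, del-cIDR over WT, by merged width of the region (bp); points give the ratio of genotype means, bars run from the lowest to the highest of the 4 ratios between a del-cIDR and a WT library, and n is the number of regions. The shaded classes are the wide domains, where the points lie at 0.027, 0.048 and 0.044, while the points of the 4 narrower classes lie at or under -0.0051.

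The plot of the ratio by width class shows the points below 0 in each class under 2000 bp and above 0 in each class of domains. The bars of the 4 narrower classes cross 0, as does the bar of the class at 3000 bp or more.

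Because the same peaks chose the domains and measured them, the length comparison was repeated in a way chosen after seeing the data, with domains chosen on the 2 libraries of one replicate number and measured in the 2 of the other. The 953 domains chosen on the replicate 1 libraries averaged 2236 bp in del-cIDR replicate 2 and 2185 bp in WT replicate 2, a log2 ratio of 0.033, with 507 longer in del-cIDR, 385 longer in WT and 61 equal. The 1043 domains chosen on the replicate 2 libraries averaged 2177 bp in del-cIDR replicate 1 and 2138 bp in WT replicate 1, a log2 ratio of 0.026, with 543 longer in del-cIDR, 460 longer in WT and 40 equal. Thus 53.2% and 52.1% of the chosen domains were longer in del-cIDR, against 43.7% and 41.3% of narrower regions chosen the same way. With 1 library per genotype in each measurement, there is no test.

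Single domains differed by more than the genotype means. In 351 of the 1191 domains (29.5%) both del-cIDR libraries had more bases under H3K4me3 peaks than both WT libraries, where the share over all 15566 regions was 17.6%. In 229 domains (19.2%) both del-cIDR libraries had fewer bases than both WT libraries, where the share over all regions was 22.1%. The genotypes overlapped in the other 611 domains. Among narrower regions 16.6% were longer in del-cIDR and 22.3% shorter without overlap, so the balance of the 2 directions was the opposite of that in the domains.

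Most of these differences were small against the length of a domain. The 2 libraries of a genotype differed by a median of 80 bp per domain for del-cIDR and 79 bp for WT, and the genotype means differed by a median of 99 bp in either direction. The mean length in del-cIDR exceeded that in WT by more than 200 bp in 219 domains and by more than 500 bp in 74. It was lower by more than 200 bp in 122 domains and by more than 500 bp in 33. When a mean difference of at least 100 bp was also asked for, 261 domains were longer in del-cIDR and 149 were shorter. For these cuts by size the shares over all regions are not given.

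Counts without overlap depend on the number of libraries compared. With 1 library left out, 459 to 570 domains were longer in del-cIDR and 327 to 419 shorter, with the highest count of longer domains without del-cIDR replicate 1 and the highest counts of shorter domains without del-cIDR replicate 2 (419) and without WT replicate 1 (392). Longer domains outnumbered shorter ones in each of these 4 settings. The shares over all regions are not given for these settings, so the counts are a description only.

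**Figure D3:**
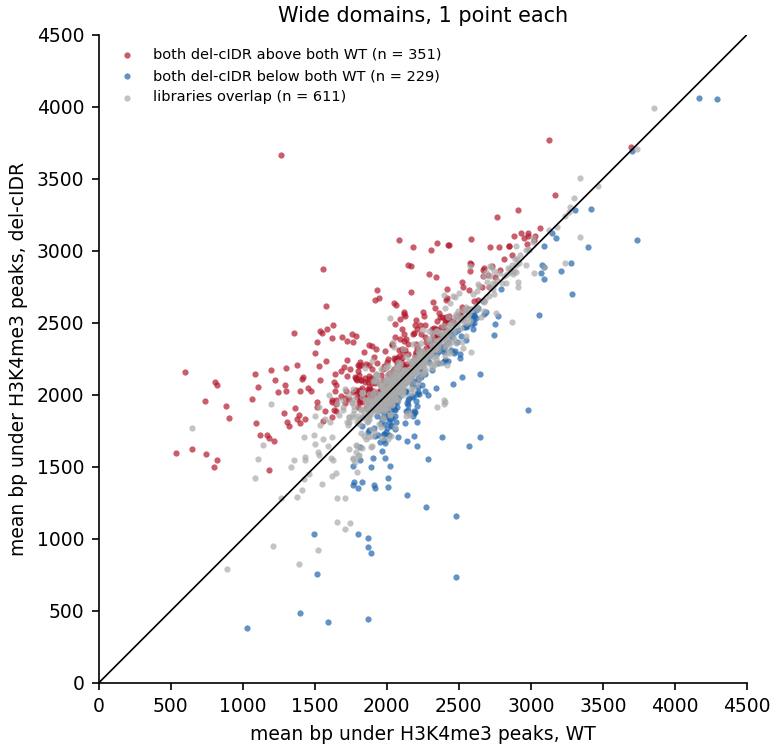
Mean bases under H3K4me3 peaks per domain (bp), del-cIDR on the vertical axis and WT on the horizontal axis, 1 point per domain with the line of equality. Red points are the 351 domains where both del-cIDR libraries lie above both WT libraries, blue points the 229 where both lie below, and grey points the 611 where the libraries overlap.

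In the plot of one genotype against the other most points hug the line of equality, and many of the points far from it have under 2000 bp in one of the genotypes. The 6 domains with the largest gain in del-cIDR and the 6 with the largest loss, chosen by that difference, are given as a description.

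After the widest domain, whose mean length was 2403 bp greater in del-cIDR, the largest gain was at chr6:64639145-64641370. It had 2096 and 2226 bp under H3K4me3 peaks in del-cIDR libraries, against 770 and 430 bp in WT libraries. Its H3K27ac was sparse, with 934 bp in del-cIDR replicate 2 and no peak in the other 3 libraries. Domain chr17:15460448-15462655 had 2099 and 2035 bp of H3K4me3 in del-cIDR libraries, against 655 and 991 bp in WT libraries. This was the only one of the 6 gains whose H3K27ac separated the genotypes by presence, at 1112 and 1136 bp in del-cIDR and no peak in WT.

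Domain chr17:71139669-71142591 had 2824 and 2923 bp in del-cIDR libraries, against 1772 and 1341 bp in WT libraries, with an H3K27ac peak in del-cIDR replicate 2 alone. Domain chr8:78792611-78794995 had 2144 and 2036 bp in del-cIDR libraries, against 851 and 763 bp in WT libraries. Domain chr5:149285859-149287952 had 2084 and 1827 bp in del-cIDR libraries, against 1096 and 381 bp in WT libraries. Neither of these last 2 had an H3K27ac peak in any library.

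The largest loss was at chr4:133326637-133329300, which had 913 and 557 bp in del-cIDR libraries, against 2456 and 2501 bp in WT libraries. H3K27ac was present in every library there, at 433 and 648 bp in del-cIDR and 41 and 558 bp in WT. Domain chr6:135041921-135044456 had 812 and 1501 bp in del-cIDR libraries, against 2425 and 2536 bp in WT libraries. Here H3K27ac was also shorter in del-cIDR, at 360 and 343 bp, against 1093 and 955 bp in WT. The other 4 losses differed in acetylation, with no H3K27ac peak at 3 of them.

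Domain chr10:62742362-62744820 had 397 and 493 bp in del-cIDR libraries, against 1905 and 1832 bp in WT libraries, and no H3K27ac peak. Domain chr8:85511286-85513374 had 517 and 331 bp in del-cIDR libraries, against 1531 and 1650 bp in WT libraries, and no H3K27ac peak. Domain chr12:109506612-109508908 had 1116 and 1322 bp in del-cIDR libraries, against 2253 and 2297 bp in WT libraries, again without H3K27ac. The exception was chr5:137626535-137629608, where H3K4me3 covered 1599 and 2189 bp in del-cIDR libraries, against 3043 and 2915 bp in WT libraries, and H3K27ac went the other way, at 2087 and 1985 bp in del-cIDR against 1649 and 1087 bp in WT. Shorter H3K4me3 in this domain came with longer H3K27ac.

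The positions of the domain edges were also compared, and gaps between peaks inside a domain are not part of these shifts. With the span from the first to the last peak in place of bases under peaks, 347 domains were longer in del-cIDR and 230 shorter. Over all 1191 domains the median shift was 0 bp at either edge. Both edges lay farther out in del-cIDR in 258 of them and both lay farther in in 241. The 351 domains longer in del-cIDR were chosen by length, so edges farther out there largely follow from that choice. In these 351 the low-coordinate edge lay a median of 62 bp farther out in del-cIDR and the high-coordinate edge 48.5 bp farther out. At least 80% of the shift lay at 1 edge in 232 of these domains (66.1%), and both edges lay farther out in 163. In the 229 shorter domains 128 (55.9%) had at least 80% of the shift at 1 edge. The share over all 1191 domains, including those whose genotypes overlapped, was 52.5%.

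The direction of the difference in length was shared by most chromosomes. On 16 of 19 autosomes the mean length was greater in del-cIDR, the exceptions being chromosomes 8, 9 and 12, with log2 ratios per chromosome between -0.027 and 0.089. All chromosomes were measured in the same 4 libraries, so they are not replicates of the difference. With chromosomes 6, 8 and 12 left out as an alternative, the other 1030 domains gave a log2 ratio of 0.040, with 313 longer and 188 shorter in del-cIDR without overlap.

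The second comparison was of acetylation, which the rule did not use. H3K27ac peaks overlapped 959 and 1013 of the 1191 domains in the del-cIDR libraries (80.5% and 85.1%), against 883 and 868 in the WT libraries (74.1% and 72.9%). The share of narrower regions with an H3K27ac peak was lower in each library, at 61.5% and 67.8% in del-cIDR libraries and 52.0% and 50.7% in WT libraries. A wider region offers more room for an overlap. The share was therefore also taken at 1 base per region, the summit of its strongest H3K4me3 peak.

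At the summit the gap between wide and narrower regions was much smaller. The summit lay inside an H3K27ac peak in 58.5% and 64.7% of domains in del-cIDR libraries and in 50.2% and 50.5% in WT libraries. In narrower regions it did so in 55.2% and 61.1% in del-cIDR libraries and 44.9% and 43.2% in WT libraries. The domains exceeded narrower regions in each of the 4 libraries, by 3.28 and 3.64 percentage points in del-cIDR and by 5.27 and 7.37 in WT, a mean of 4.89 ± 1.86 points (SD, n = 4 libraries; exact sign-flip permutation p = 0.125, two-sided, the smallest that 4 libraries allow). They did not exceed the nearest class, regions of 1500 to 2000 bp. That class stood above the domains in each library, at 63.0% and 68.5% in del-cIDR libraries and 53.3% and 51.6% in WT libraries. At 3000 bp or more the sign turned: the share at the summit minus that of the regions under this width was -12.3 points on average over the libraries (exact sign-flip permutation p = 0.125, two-sided, n = 4).

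The share of bases under H3K27ac was close in wide and narrower regions, with a sign that split by genotype. It was 36.4% and 39.9% in del-cIDR libraries and 30.5% and 28.9% in WT libraries for the domains, and 37.0% and 40.8% in del-cIDR libraries and 29.6% and 27.7% in WT libraries for narrower regions. Wide minus narrower, the difference was -0.627 and -0.917 percentage points in del-cIDR libraries and 0.951 and 1.24 points in WT libraries, so its mean of 0.162 ± 1.09 points (SD, n = 4 libraries; exact sign-flip permutation p = 0.75, two-sided) averages over opposite signs. Where a domain held H3K27ac, the median covered length was 1037 and 1082 bp in del-cIDR libraries and 902 and 897 bp in WT libraries, less than the 2000 bp that every domain spans.

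Presence and position of H3K27ac parted with width. In domains of 2000 to 2500 bp an H3K27ac peak was present in 79.7% and 84.0% in del-cIDR libraries and 72.7% and 71.0% in WT libraries, and at 3000 bp or more in 84.9% and 93.0% in del-cIDR libraries and 82.6% and 80.2% in WT libraries. The summit lay under H3K27ac in 62.0% and 67.2% in del-cIDR libraries and 53.5% and 53.0% in WT libraries in the first class, and in 40.7% and 50.0% in del-cIDR libraries and 33.7% and 32.6% in WT libraries in the class at 3000 bp or more. In each library, the class at 3000 bp or more had the highest share with H3K27ac and the lowest share with H3K27ac at the H3K4me3 summit among the 3 classes of domains.

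**Figure D4:**
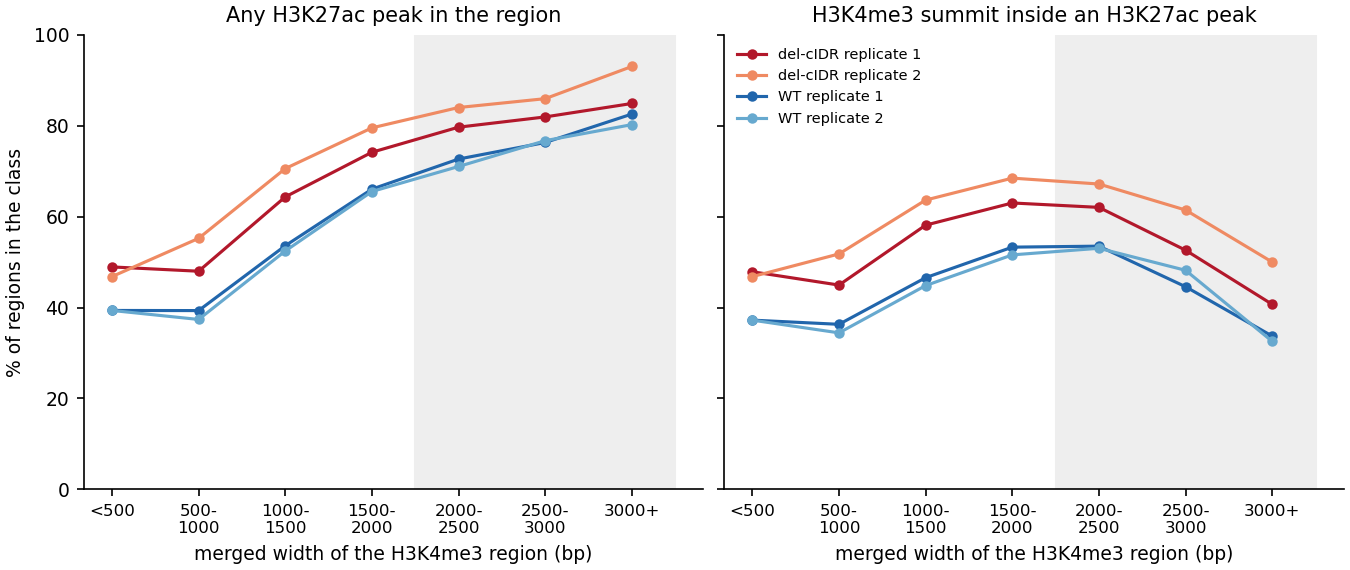
Share of regions (%) by merged H3K4me3 width (bp), 1 line per H3K27ac library: left, any H3K27ac peak in the region; right, the summit of the strongest H3K4me3 peak inside an H3K27ac peak. Across the shaded classes of wide domains the left lines rise, to 84.9% and 93.0% in del-cIDR and 82.6% and 80.2% in WT, while the right lines drop, to 40.7% and 50.0% in del-cIDR and 33.7% and 32.6% in WT.

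In the plot of H3K27ac by width the left panel climbs with width from the class of 500 to 1000 bp on, and each line of the right panel lies lower at 2500 to 3000 bp than at 2000 to 2500 bp, and lower again at 3000 bp or more. Between the classes of 1500 to 2000 bp and 2000 to 2500 bp the del-cIDR lines of the right panel already drop slightly, while the WT lines still rise slightly. The 2 del-cIDR lines lie above the 2 WT lines in every class of both panels. Where a domain held an H3K27ac peak that missed the summit, in 262 and 242 domains in del-cIDR libraries and 285 and 266 in WT libraries, the nearest H3K27ac peak lay a median of 534 and 539 bp from the summit in del-cIDR libraries and 500 and 585 bp in WT libraries.

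Along the domain, H3K27ac was spread over the interior and dropped at the edges. It covered the exact centre of 38.7% and 42.2% of domains in del-cIDR libraries and 33.2% and 29.7% in WT libraries. Midway between centre and edge it covered 40.9% and 44.4% in del-cIDR libraries and 34.3% and 32.9% in WT libraries, slightly more than at the centre in each library. By 500 bp outside the edge the share was 4.20% and 4.03% in del-cIDR libraries and 4.37% and 3.53% in WT libraries, so the genotypes overlapped there. At 1000 bp outside it was 2.52% and 2.56% in del-cIDR libraries and 2.18% and 2.14% in WT libraries, without overlap. The order of the libraries outside the domain thus depended on the distance. Of the H3K27ac peaks in domains, 40.2% and 41.0% in del-cIDR libraries and 35.6% and 32.8% in WT libraries reached past a domain edge.

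**Figure D5:**
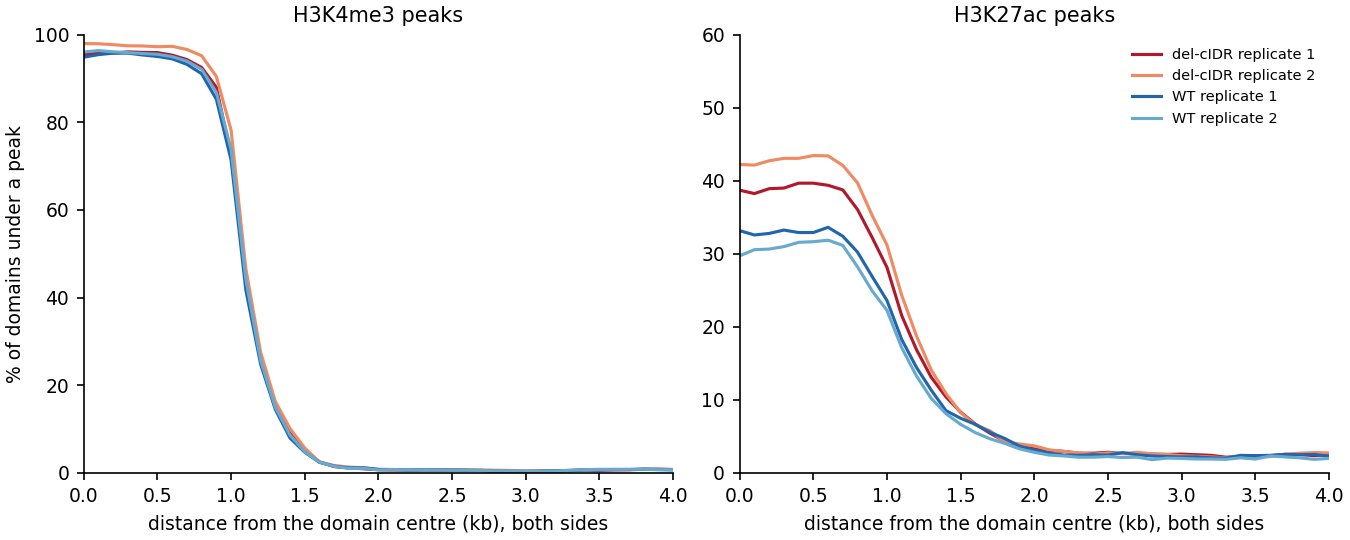
Share of the 1191 domains under a peak (%), averaged over both sides, by distance from the domain centre (kb), 1 line per library: left, H3K4me3; right, H3K27ac, on its own scale. At 1 kb H3K4me3 covered 72.3% and 78.2% of domains in del-cIDR libraries and 71.4% and 73.8% in WT libraries. The H3K27ac lines of del-cIDR run above those of WT inside the domain and lie closer to them outside, where the order varies with distance.

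The profile around the centre shows the steep fall of H3K4me3 past 1 kb, where most domains end. At 1500 bp from the centre H3K4me3 covered 5.21% and 5.67% of domains in del-cIDR libraries and 4.70% and 4.83% in WT libraries, while H3K27ac still covered 8.31% and 8.23% in del-cIDR libraries and 7.47% and 6.63% in WT libraries.

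Between genotypes the domains held H3K27ac more often in del-cIDR. The share of domains with a peak was 82.8 ± 3.21% for del-cIDR libraries and 73.5 ± 0.891% for WT libraries (SD, n = 2 each), a difference of 9.28 percentage points, with both del-cIDR libraries above both WT libraries (exact permutation p = 0.333, two-sided, the smallest possible). The share of their bases under H3K27ac was 38.1 ± 2.49% for del-cIDR libraries and 29.7 ± 1.12% for WT libraries, a difference of 8.39 points (exact permutation p = 0.333, two-sided, n = 2 each). Narrower regions differed in the same direction by more, with a peak in 64.7 ± 4.44% in del-cIDR and 51.4 ± 0.881% in WT, a difference of 13.3 points. The gap in H3K27ac was thus not larger in wide domains than in other H3K4me3 regions.

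The length of the H3K27ac lists moved with this result. They held 27883 and 32353 autosomal peaks in del-cIDR libraries, against 25153 and 22810 in WT libraries. With the 4 lists reduced to equal length by their strongest peaks, the difference in the share of domains with H3K27ac was 5.77 points. With peaks of a −log10 q of at least 5 it was 15.2 points. Read depth is unknown, and the part of depth in these differences was not tested.

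Domain by domain, most acetylation was shared by the genotypes. H3K27ac was present in all 4 libraries in 774 domains (65.0%), against 39.9% of narrower regions, and in no library in 128 domains (10.7%), against 23.3% of narrower regions. These shares count any overlap, for which a wider region offers more room. Peaks of both del-cIDR libraries and no WT library fell in 44 domains (3.69%), where the share over all 15566 regions was 5.84%. Peaks of both WT libraries and no del-cIDR library fell in 3 domains (0.252%), where the share over all regions was 0.546%. With 1 library left out these 2 counts were 65 to 103 and 5 to 17, so each depends on having 2 libraries per genotype. The count of 44 passed 1.5 times its size without del-cIDR replicate 1 (84), WT replicate 1 (103) and WT replicate 2 (96).

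Bases under H3K27ac differed without overlap in far more domains. In 472 domains (39.6%) both del-cIDR libraries had more bases under H3K27ac than both WT libraries, where the share over all regions was 27.8%. The reverse held in 39 domains (3.27%), where the share over all regions was 3.34%. The share in domains was above that over all regions for covered length and below it for presence, and both rest on the same 4 libraries. A region without H3K27ac in any library cannot enter these counts, and this held for 10.7% of domains but 23.3% of narrower regions. The shares for covered length are therefore not on an equal footing.

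Acetylation and H3K4me3 length moved together only in part. Among the 351 domains with longer H3K4me3 in del-cIDR, H3K27ac was longer in del-cIDR in 155 (44.2%) and shorter in 5 (1.42%). Among narrower regions with longer H3K4me3 these shares were 32.3% and 2.69%. Among the 229 domains with shorter H3K4me3 in del-cIDR, H3K27ac was longer in del-cIDR in 78 (34.1%) and shorter in 17 (7.42%). Among narrower regions with shorter H3K4me3 these shares were 23.0% and 4.18%. Longer H3K27ac in del-cIDR was therefore more common than shorter H3K27ac even where H3K4me3 was shorter, in domains and narrower regions alike. The marks come from different libraries, and no test over domains was made.

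The classes by H3K27ac also differed in H3K4me3. Domains with H3K27ac in all 4 libraries had a median width of 2288 bp and averaged 2240 bp under H3K4me3 peaks in del-cIDR libraries and 2179 bp in WT libraries. In this class 241 domains (31.1%) were longer and 136 (17.6%) shorter in del-cIDR without overlap. Domains without H3K27ac in any library had a median width of 2228 bp and averaged 1937 bp in del-cIDR libraries and 1928 bp in WT libraries, with 31 (24.2%) longer and 33 (25.8%) shorter. Over all domains the shares were 29.5% longer and 19.2% shorter. Longer domains outnumbered shorter ones in the first of these classes and not in the second, and the difference between the classes was not tested. The classes in between went both ways: the 111 domains with H3K27ac in both del-cIDR libraries and 1 WT library had 34 longer and 19 shorter, while the 37 with it in 1 library of each genotype had 6 longer and 11 shorter.

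The 128 domains without H3K27ac were flatter than those with H3K27ac in all 4 libraries. Their median percentile by H3K4me3 fold was 14.8 to 16.5 over the 4 libraries, against 24.2 to 25.6 in domains with H3K27ac in all 4, and these ranks come from the peaks that chose the domains. The nearest H3K27ac peak of any library lay a median of 6300 bp away, and in 59 of the 128 it lay within 5000 bp.

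The widest domains without H3K27ac were as long as many with it. Domain chr1:36107355-36110775 spanned 3421 bp and had 2952 and 3059 bp of H3K4me3 in del-cIDR libraries, against 2087 and 2531 bp in WT libraries. Domain chr13:113751778-113755104 spanned 3327 bp, with 3176 and 3158 bp in del-cIDR libraries and 3327 and 3035 bp in WT libraries. Domain chr13:63710946-63714133 spanned 3188 bp, with 3131 and 3119 bp in del-cIDR libraries and 3132 and 3156 bp in WT libraries. The first of these was longer in del-cIDR without overlap, and the other 2 differed between genotypes by under 20 bp on average.

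The other 3 of the 6 widest domains without H3K27ac varied more between libraries. Domain chr5:52270404-52273647 had 1365 and 2050 bp in del-cIDR libraries, against 2620 and 2668 bp in WT libraries. Domain chr17:46340330-46343370 had 2028 and 3041 bp in del-cIDR libraries and 2021 and 2029 bp in WT libraries, so its width of 3041 bp came from del-cIDR replicate 2. Domain chr8:121213835-121217143 had 2508 and 3058 bp in del-cIDR libraries and 2433 and 2964 bp in WT libraries, longer in replicate 2 of both genotypes.

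At the other extreme a few domains lay wholly under H3K27ac. Domain chr11:95871740-95873835 was covered by H3K27ac over 2096 bp in both del-cIDR libraries and 2096 and 2095 bp in WT libraries, of a width of 2096 bp. Domain chr6:122584851-122587146 was covered over 2296 and 2295 bp in del-cIDR libraries and 2296 and 2294 bp in WT libraries, of 2296 bp. H3K4me3 covered most of the chr6 domain too, with 2267 and 2296 bp in del-cIDR libraries and 2026 and 2264 bp in WT libraries. That was not so in the domain most covered by H3K27ac, which lies on chromosome 18 and spanned 2376 bp, all under H3K27ac in each library. Its H3K4me3 covered 1270 and 954 bp in del-cIDR libraries, against 2254 and 1231 bp in WT libraries.

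Domain chr17:71171350-71173502 also held a small H3K4me3 mark inside broad acetylation. H3K27ac covered its whole width of 2153 bp in both del-cIDR libraries, and 1739 and 2153 bp in WT libraries. H3K4me3 covered 390 and 365 bp in del-cIDR libraries, against 990 and 1067 bp in WT libraries. It is a wide domain only as the union of 4 shorter marks.

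The third comparison was with H3K9me3. An H3K9me3 peak overlapped 3 and 6 of the 1191 domains in the del-cIDR libraries (0.252% and 0.504%) and 3 and 10 in the WT libraries (0.252% and 0.840%). Narrower regions held one in 0.856% and 1.18% in del-cIDR libraries and 0.299% and 0.960% in WT libraries. At the H3K4me3 summit the share in domains was below that in narrower regions in each library, with a mean difference of -0.206 ± 0.136 percentage points (SD, n = 4 libraries; exact sign-flip permutation p = 0.125, two-sided, the smallest possible). The domains stood at 0.252% in both del-cIDR libraries and at 0.0840% and 0.168% in WT libraries. Regions of 1500 to 2000 bp stood lower in each library, at 0.0981% and 0.229% in del-cIDR libraries and 0.0327% and 0.0981% in WT libraries. The lower share in domains was thus not seen against the nearest width class. No library had an H3K9me3 peak in 1180 domains (99.1%), including each of the 86 that spanned 3000 bp or more.

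The order of the genotypes in H3K9me3 depended on the measure. The share of domains with H3K9me3 was 0.378 ± 0.178% for del-cIDR libraries and 0.546 ± 0.416% for WT libraries (SD, n = 2 each; exact permutation p = 1, two-sided), and the sign turned without WT replicate 2, to 0.126 points higher in del-cIDR. At the H3K4me3 summit the order was the opposite without overlap, with H3K9me3 in 3 domains in each del-cIDR library, against 1 and 2 domains in WT libraries (exact permutation p = 0.333, two-sided, n = 2 each). The lists held 34154 and 37789 autosomal peaks in del-cIDR libraries and 20895 and 41183 in WT libraries, so the 2 WT lists differed most. Of the 11 domains with H3K9me3 in some library, 5 had it in WT replicate 2 alone.

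In 3 domains H3K9me3 was present in all 4 libraries. Domain chr14:27410166-27412379 had 1759 and 1639 bp under H3K9me3 in del-cIDR libraries and 480 and 1538 bp in WT libraries. Its H3K4me3 was shorter in del-cIDR, at 1305 and 493 bp, against 2167 and 1613 bp in WT, and its H3K27ac was limited to 208 bp in WT replicate 1. In this domain the lengths of H3K9me3 and H3K4me3 ran opposite to each other in the genotypes.

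The other 2 domains carried all 3 marks in every library. Domain chr16:13087920-13090088 had 480 and 774 bp of H3K9me3 in del-cIDR libraries, against 222 and 160 bp in WT libraries, and 1149 and 936 bp of H3K27ac in del-cIDR libraries, against 900 bp in each WT library. Its H3K4me3 covered 2169 and 2055 bp in del-cIDR libraries, against 1809 and 1937 bp in WT libraries, so each of the 3 marks was longer in del-cIDR without overlap. Domain chr13:62245624-62247710 had 483 and 914 bp of H3K9me3 in del-cIDR libraries, against 1097 and 1163 bp in WT libraries, with H3K27ac over 1518 and 1352 bp in del-cIDR libraries and 1509 and 1426 bp in WT libraries. Whether the marks lie on the same alleles or in the same cells was not tested.

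In 2 further domains H3K9me3 was present in 1 library of each genotype, replicate 2 in both. Domain chr4:145158681-145161436 had 344 bp of H3K9me3 in del-cIDR replicate 2 and 1263 bp in WT replicate 2. Domain chr8:120310845-120313262 had 350 bp in del-cIDR replicate 2 and 199 bp in WT replicate 2, and H3K4me3 over 1746 and 1254 bp in del-cIDR libraries, against 605 and 990 bp in WT libraries.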

How the data were processed

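Per the labels, H3K4me3, H3K27ac and H3K9me3 were profiled in 12 libraries, 2 per mark and genotype. Per the submitters' processing notes, GRCm39 was the build and BWA, Picard, MACS2, featureCounts, fastp and SAMtools were the tools; their versions, order and settings, and any control library, were not given in the sources used here. The authors deposited 1 peak list per library, narrow peaks for H3K4me3 and H3K27ac and broad peaks for H3K9me3, so peaks were called per sample. The deposited lists give peak positions, a fold enrichment (the ratio of a peak to its library's expected background), the −log10 of the p-value and q-value and a score that was not used. Fold and −log10 values were ranked only within a library, for H3K4me3 over the regions with a peak of all 4 libraries. The weakest deposited −log10 q was 1.30 for H3K4me3 and H3K27ac and 1.00 for H3K9me3, so weaker sites are not in the lists. Read depth is unknown, since the lists hold no read counts, and no interval for counting error is given. List length may follow depth.

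Peaks on chromosomes 1 to 19 were merged where they overlapped by at least 1 bp. Length is the number of bases of a domain under a library's peaks. H3K27ac and H3K9me3 were tested by exact permutations over libraries, two-sided: 2 against 2, or sign flips over 4. The exact test planned for H3K4me3 length is not reported, since the same peaks chose the domains. A domain was called longer or shorter when the libraries of the genotypes did not overlap. The main counts over the full set of domains stand beside their share over all regions with a peak of all 4 libraries. Counts within classes of domains, on chromosome X or under alternative settings are given without that share.

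Domains were named by a rule: the 10 widest, the 6 largest gains and 6 largest losses of H3K4me3 without overlap, the 6 widest without H3K27ac, those with H3K9me3 in all 4 libraries, the 5 most covered by H3K27ac and the 3 on each side of 2000 bp; not all are printed. Domains with H3K9me3 in 2 libraries were named after their values were seen. The domains, the comparisons and chromosomes 6, 8 and 12 as an alternative were chosen with earlier results of these data known. No gene annotation of GRCm39 was used here, so gene lists and marker genes were not used. The merging and counting were tested on simulated peaks. Python 3.11.15, NumPy 2.4.6, pandas 2.3.3, SciPy 1.17.1 and Matplotlib 3.10.9 were used.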

Additional observations from a re-analysis of the deposited data

How the results depend on the processing

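With each library left out in turn, the number of domains ran from 1076 to 1132, the log2 difference in length from 0.013 to 0.054 and that in relative length from 0.044 to 0.051. The genotype difference in the share of domains with H3K27ac ran from 7.01 to 11.5 points and in bases under it from 6.62 to 10.2 points. The difference between wide and narrower regions at the summit ran from 4.06 to 5.43 points for H3K27ac and from -0.245 to -0.140 points for H3K9me3. Domains longer in del-cIDR without overlap ran from 459 to 570, shorter from 327 to 419, with H3K27ac in del-cIDR only from 65 to 103 and in WT only from 5 to 17. The genotype difference for H3K9me3 ran from -0.462 to 0.126 points, and was 0.0840 when a peak had to cover at least 200 bp.

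A width of at least 3000 bp left 86 domains, 32 longer and 20 shorter in del-cIDR, with H3K27ac in del-cIDR only in 3 and in WT only in 0, and turned the difference in H3K27ac at the summit to -12.3 points (exact sign-flip p = 0.125). Asking for 2000 bp in each library left 581 domains, 161 longer and 106 shorter, 18 with H3K27ac in del-cIDR only. Their log2 difference in length was 0.018 and that in relative length 0.027. Peaks with a −log10 q of at least 5 gave 78 and 1 domains with H3K27ac in del-cIDR only and in WT only. They gave a genotype difference of 15.2 points in the share of domains with H3K27ac. Equal list lengths, and merging H3K4me3 peaks within 1000 bp, each gave 6 in WT only. A mean difference of at least 100 bp left 149 shorter domains. The causes of these changes were not tested beyond the smaller sets that the stricter settings leave.

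With the replicate number as a block the log2 difference in length was 0.034, that in H3K27ac share 9.28 points, in bases 8.39 points and in H3K9me3 share -0.168 points, where 2 pairs allow no exact p below 0.5. Deviations of same-numbered libraries from their genotype means correlated at 0.04 for H3K4me3, 0.04 for H3K27ac and 0.25 for H3K9me3, and the labels tie no number to a culture or day, so the numbers were not used as pairs. No setting can pass 0.05 with these libraries, so a kept direction is not a test. The relative length and the choice of domains on one replicate number were chosen after seeing the data.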

Other observations

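Chromosome X lies outside the rule that chose the domains. By the same rule it held 40 wide domains among 522 regions with a peak of all 4 libraries (7.66%), a share close to the 7.65% on the autosomes. These averaged 2155 and 2237 bp under H3K4me3 peaks in del-cIDR libraries, against 2036 and 2034 bp in WT libraries. In 22 of the 40 both del-cIDR libraries exceeded both WT libraries, and in 3 both lay below. The shares over the 522 regions are not given, so these counts are a description only. Whether narrower regions of chromosome X shared this direction was not tested. H3K27ac peaks overlapped 85% of the 40 in each del-cIDR library and 75% in each WT library. No test was made on chromosome X, and none of the values above include it.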
